A study of Homo sapiens with 4 samples.

Results

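The genes described here are 35 genes of cholesterol metabolism, taken by symbol from a table of 60609 gene identifiers: 19 enzymes of cholesterol synthesis, 6 genes that control the sterol-responsive transcription factors (SREBP), 6 genes of uptake, transport and storage, and 4 genes of the liver X receptors (LXR) and cholesterol efflux. All 35 were found, and all passed the filter of a mean normalized count of at least 1. RNA was measured by sequencing in CCRF-CEM, an established human line from a T cell acute lymphoblastic leukaemia, in a derivative with an HA-tagged AMPK alpha 2 subunit (CCRF-CEM/HA-AMPKa2). AMPK is the energy-sensing kinase, and libraries of both groups carry the tagged subunit; how it is expressed is not given in the sources used here. Control cells (Ctrl, libraries CTRL_7 and CTRL_8) were kept in control medium for 24 hours; the labels call them untreated, and the series' design text calls them vehicle. Glucose-deprived cells (No glucose, libraries ONG_9 and ONG_10) were kept in medium without glucose for 24 hours. The culture medium before treatment was RPMI with fetal bovine serum, a source of lipoprotein cholesterol. The comparison asks how the transcripts of a lipid pathway differ in leukaemia cells after a metabolic stress. Nothing in the labels says whether a group's 2 libraries came from different cultures; every p-value here is set against the difference between such libraries, which may be technical.

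Cholesterol is built from acetyl-CoA through mevalonate, farnesyl diphosphate, squalene and lanosterol, in the cytosol, the endoplasmic reticulum and peroxisomes. When sterols in the endoplasmic reticulum are scarce, SCAP carries the SREBP precursors to the Golgi, where proteases release the active factors, which then raise the genes of synthesis and uptake. INSIG proteins retain the SCAP complex when sterols are plentiful, and LXR, activated by oxysterols, turn on efflux pumps. Proliferating T cells and lymphoid leukaemia cells draw on this pathway for membrane sterol.

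The depth was 96698709 and 24513840 recovered reads in CTRL_7 and CTRL_8 and 19035535 and 20081266 in ONG_9 and ONG_10, so rare transcripts are counted most finely in CTRL_7. Values below are normalized counts, reads divided by 1 size factor per library, and log2 fold changes are No glucose against Ctrl on log2(normalized count + 1). Replicates were distinct libraries: the chi-square per degree of freedom over genes with at least 20 reads was 1.81 within Ctrl and 5.72 within No glucose. The 2 No glucose libraries also differed with base composition. Among protein-coding genes with a mean of at least 50 normalized counts, the median log2 ratio of ONG_10 to ONG_9 was -0.10 below 40% GC and 0.35 above 60% GC. For CTRL_8 to CTRL_7 it was -0.003 and -0.108. The median log2 fold change between the groups also differed with GC, at -0.112 below 40% and -0.415 above 60%. Of the 11 cholesterol genes above 55% GC, 10 were higher in ONG_10 than in ONG_9, and of the 18 below 50% GC, 15 were lower. All 12 T-lineage markers were at or above 1 normalized count in every library, and their summed level ranged from 105900.0 to 107300.0 in Ctrl and from 112900.0 to 117200.0 without glucose. Without PTPRC, which rose, the other markers summed to 76210.0 to 77160.0 and 67930.0 to 68570.0; CD3E was also called higher, and CD3G, CD7, CD1A, TAL1 and RAG1 were called lower. The 4 B cell markers summed to 704 to 710.0 in Ctrl and 438 to 457 without glucose, most of it CD79A; MS4A1 was at 0 in 3 libraries. The 4 myeloid markers summed to 23.4 to 29.4 in Ctrl and 31.8 to 40.7 without glucose, with MPO at 0 throughout. The 4 adherent-cell markers, mostly EPCAM, summed to 486 to 539 and 410 to 431, and the 3 erythroid markers to at most 1.37 normalized counts, with HBB at 0. The part of these differences in the results was not tested.

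The promoters of several genes are shown because the genes moved together or, in the case of MYLIP and ABCA1, the other way. They are RefSeq windows (GRCh38.p14) of 300 bases, from 250 before to 50 after an annotated start, written 5′ to 3′ on the gene's strand. Capitals mark the SREBP-type letters TCACNCCAC, or their first part TCACNCCA, and the NF-Y box CCAAT, which on the other strand reads ATTGG.
SREBF2 (chr22:41832855-41833154, + strand): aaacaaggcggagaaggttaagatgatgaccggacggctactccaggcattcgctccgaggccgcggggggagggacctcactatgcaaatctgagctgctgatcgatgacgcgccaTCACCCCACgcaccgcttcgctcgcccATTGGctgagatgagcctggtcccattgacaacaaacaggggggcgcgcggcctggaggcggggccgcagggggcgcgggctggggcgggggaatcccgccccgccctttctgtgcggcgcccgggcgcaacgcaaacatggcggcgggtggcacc
INSIG1 (chr7:155297628-155297927, + strand): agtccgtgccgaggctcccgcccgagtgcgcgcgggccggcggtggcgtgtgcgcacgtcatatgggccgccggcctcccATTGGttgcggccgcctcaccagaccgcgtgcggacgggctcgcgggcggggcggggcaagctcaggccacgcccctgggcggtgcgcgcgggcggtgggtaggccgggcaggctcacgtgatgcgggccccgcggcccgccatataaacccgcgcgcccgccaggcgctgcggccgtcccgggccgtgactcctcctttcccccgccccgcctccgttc
MVK (chr12:109573544-109573843, + strand): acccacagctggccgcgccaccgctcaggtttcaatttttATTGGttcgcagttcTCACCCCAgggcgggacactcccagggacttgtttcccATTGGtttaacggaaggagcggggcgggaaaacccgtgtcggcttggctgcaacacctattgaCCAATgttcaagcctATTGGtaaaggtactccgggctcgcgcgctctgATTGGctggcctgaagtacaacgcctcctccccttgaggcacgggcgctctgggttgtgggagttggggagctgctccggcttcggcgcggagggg
FDPS (chr1:155308616-155308915, + strand): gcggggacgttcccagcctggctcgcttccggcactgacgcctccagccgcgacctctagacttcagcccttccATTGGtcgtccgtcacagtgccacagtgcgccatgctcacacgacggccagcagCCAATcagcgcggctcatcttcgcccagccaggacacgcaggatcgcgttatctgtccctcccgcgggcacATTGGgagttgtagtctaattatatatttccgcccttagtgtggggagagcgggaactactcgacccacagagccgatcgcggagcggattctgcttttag
STARD4 (chr5:111512486-111512785, - strand): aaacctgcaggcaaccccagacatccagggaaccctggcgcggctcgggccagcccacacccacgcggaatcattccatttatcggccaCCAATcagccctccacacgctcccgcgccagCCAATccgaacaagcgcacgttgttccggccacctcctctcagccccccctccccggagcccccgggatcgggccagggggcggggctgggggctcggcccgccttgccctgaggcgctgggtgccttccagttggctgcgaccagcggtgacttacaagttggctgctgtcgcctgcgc
MYLIP (chr6:16128836-16129135, + strand): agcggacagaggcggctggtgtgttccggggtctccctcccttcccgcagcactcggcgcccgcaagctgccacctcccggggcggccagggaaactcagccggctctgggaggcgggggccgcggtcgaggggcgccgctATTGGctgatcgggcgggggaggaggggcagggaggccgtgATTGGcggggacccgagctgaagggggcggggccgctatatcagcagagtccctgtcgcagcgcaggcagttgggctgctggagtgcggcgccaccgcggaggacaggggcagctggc
ABCA1 (chr9:104928106-104928405, - strand): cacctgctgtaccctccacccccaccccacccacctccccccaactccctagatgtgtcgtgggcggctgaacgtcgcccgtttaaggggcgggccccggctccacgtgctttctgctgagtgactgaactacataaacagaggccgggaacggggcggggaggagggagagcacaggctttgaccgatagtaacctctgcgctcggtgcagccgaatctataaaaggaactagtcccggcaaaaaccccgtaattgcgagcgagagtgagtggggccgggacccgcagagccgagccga

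In these windows, the SREBF2 promoter held TCACCCCAC, whose first base lay 133 bases before the annotated start, and an inverted CCAAT box 106 bases before it. MVK held the shorter form 195 bases before its start and CCAAT boxes at 5 places. FDPS held 3 boxes, STARD4 and MYLIP 2 each, INSIG1 1 and ABCA1 none. Both strands of every window were searched. Windows of these genes on chromosome 8 were left out, though the set of all windows kept that chromosome. FDFT1 and SQLE lie there, so both are missing from the counts below. Of the 35 genes, 31 had at least 1 window counted, and ACAT2 and ABCG1 were not matched. CCAAT was in 17 of 26 windows (65.4%) of genes that fell, 2 of 3 windows of genes that rose and 4 of 12 (33.3%) not called. It was in 34.6% of all 35116 windows in the RefSeq set, noncoding genes among them. A gene can have more than 1 window, and some of these overlap. Counted by gene, CCAAT was in 16 of 21 that fell, 2 of 3 that rose and 3 of 7 not called. A share by gene over the whole set was not computed. The Sp1 box GGGCGG was in 22 of the 26 windows (84.6%) of genes that fell, against 45.0% of all windows. It was also in 3 of 3 windows of genes that rose and 9 of 12 (75.0%) of those not called. Counted by gene, GGGCGG was in 18 of 21 that fell, 3 of 3 that rose and 6 of 7 not called. TCACNCCAC was in 1 of the 26 windows, that of SREBF2, against 1.13% of all. The shorter TCACNCCA, which includes it and was added after that search, was in 3 of the 26, those of SREBF2, MVK and MSMO1, against 3.95% of all. The E box CACGTG was in 3 of the 26 (11.5%), against 7.26% of all. It was in 1 of 3 windows of genes that rose and 2 of 12 (16.7%) of those not called. Both of those 2 windows belong to SC5D and overlap. Counted by gene, the E box was in 3 of 21 that fell, 1 of 3 that rose and 1 of 7 not called. These matches describe letters only.

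Without glucose, the enzymes of cholesterol synthesis fell from ACAT2 to DHCR7, with SC5D and TM7SF2 not called, while genes of uptake and efflux split. Of the 35 genes 25 fell and 3 rose (limma, Benjamini-Hochberg adjusted p under 0.05), against 20.7% of all 27486 tested genes called lower and 14.4% called higher. Among protein-coding genes with a mean of at least 50 normalized counts, 47.2% were called lower and 18.9% higher. The 19 synthesis genes, of which 17 fell and none rose, had a median log2 fold change of -1.29, against 0.04 over all tested genes and -0.20 over those protein-coding genes. Of these 19, 13 were called lower with a log2 fold change of -1 or less, which held for 4.48% of all tested genes and 7.55% of the protein-coding genes. The 3 genes that rose were MYLIP, ABCA1 and OSBP. In 27 of the 35 genes both No glucose libraries lay below both Ctrl libraries and in 4 above. Such separation is common here: it held for 31.7% (below) and 35.1% (above) of all tested genes, and for 57.9% and 27.4% of the protein-coding genes. Scaling to library totals instead moved the median of all genes up by 0.19 and the share of higher calls among all calls from 40.9% to 61.5%; with it 20 of the cholesterol genes were lower and 6 higher. By the authors' deposited table, 22 of the 35 genes were lower and 3 higher at an adjusted p under 0.05, and 32 had the same call as here; CYP51A1, NPC2 and ABCG1 were called lower here and not called in that table. Fewer transcripts per cell and fewer cells of one state cannot be told apart in bulk RNA.

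**Figure D1:**
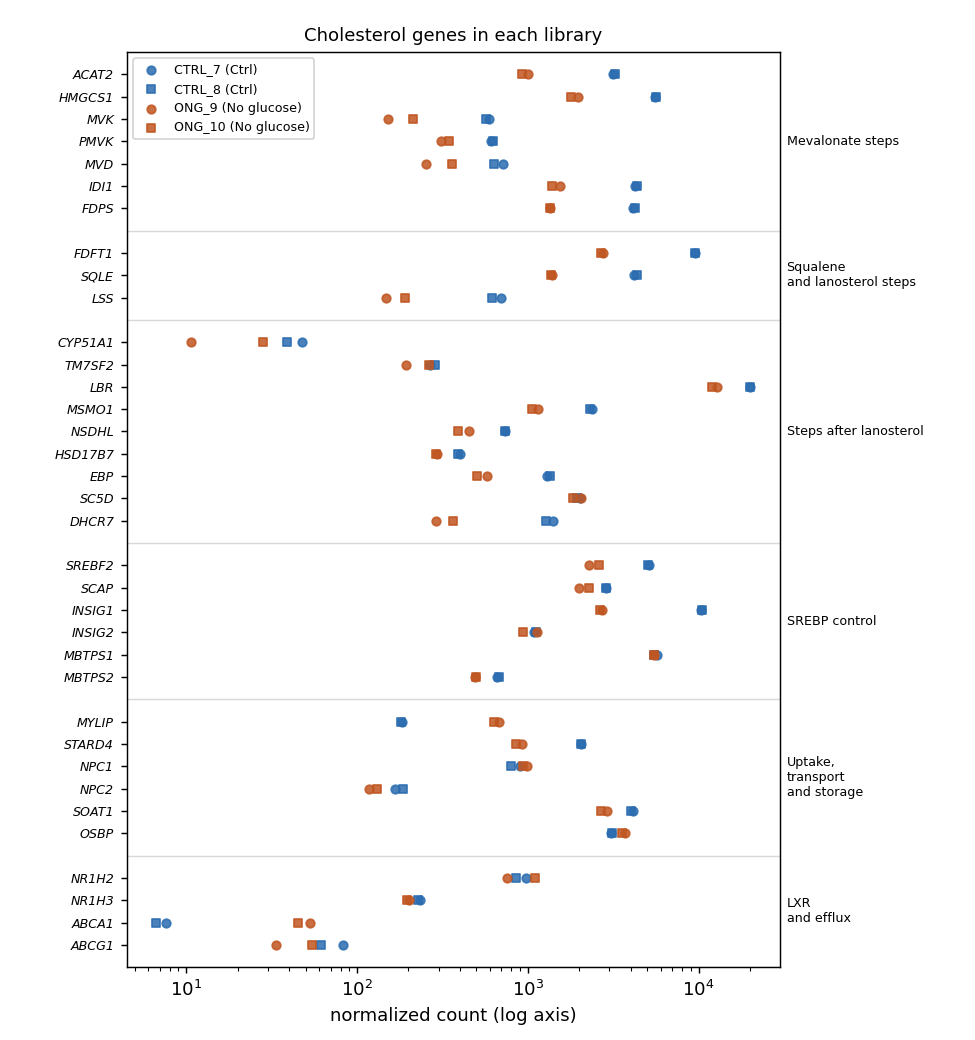
Normalized counts of the 35 cholesterol genes (log axis) in each of the 4 libraries, blue for Ctrl and orange for No glucose, ordered by role. Most synthesis genes have both No glucose points left of both Ctrl points, SC5D and MBTPS1 overlap, and MYLIP and ABCA1 lie to the right.

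All 7 genes of the mevalonate steps fell, with log2 fold changes from -1.73 to -0.91 and a median of -1.58. ACAT2, the cytosolic thiolase that joins acetyl-CoA units, had 3157 and 3253 normalized counts in CTRL_7 and CTRL_8 and 1005 and 926 in ONG_9 and ONG_10. Its log2 fold change was -1.73 ± 0.07 (SE; limma, Benjamini-Hochberg adjusted p = 2.4e-08), and it had 30.1% of the control mean left. HMGCS1, the cytosolic synthase of the next step, had 5566 and 5665 in the control libraries and 1976 and 1783 without glucose, a log2 fold change of -1.58 ± 0.06. The kinases MVK and PMVK act on mevalonate in turn. MVK had 590.5 and 568 in the control libraries and 152 and 213 without glucose, a log2 fold change of -1.68 ± 0.14. PMVK had 605 and 629 in the control libraries and 311 and 344 without glucose, a log2 fold change of -0.91 ± 0.09; after GC and length correction it was -0.36. In both, the groups did not overlap. The decarboxylase MVD, which makes isopentenyl diphosphate, had 718 and 631 in the control libraries and 255 and 361 without glucose (-1.15 ± 0.14), and after GC and length correction its log2 fold change was -0.70. IDI1, the isomerase of isopentenyl diphosphate, had 4226 and 4332 in the control libraries and 1551 and 1388 without glucose (-1.54 ± 0.07). FDPS, which builds farnesyl diphosphate, the branch point to sterols and prenylated proteins, had 4152 and 4240.2 in the control libraries and 1345 and 1354 without glucose (-1.64 ± 0.06; limma, Benjamini-Hochberg adjusted p = 1.6e-08). Within each group the libraries were close for FDPS, whereas MVK and MVD, at 58.2% and 63.7% GC, were lower in ONG_9 than in ONG_10, the side on which GC-rich genes lay; its part in these values was not tested.

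The 3 enzymes that commit farnesyl units to sterols all fell, with a median log2 fold change of -1.81. FDFT1, squalene synthase, had 9514 and 9464 normalized counts in CTRL_7 and CTRL_8 and 2755 and 2666 in ONG_9 and ONG_10. That is 28.6% of the control mean, a log2 fold change of -1.81 ± 0.05 (limma, Benjamini-Hochberg adjusted p = 6.0e-09). SQLE, the oxygen-dependent epoxidase of squalene, had 4174 and 4338 in the control libraries and 1392 and 1368 without glucose, a log2 fold change of -1.62 ± 0.06. LSS, the cyclase that closes the sterol rings, had 692 and 619 in the control libraries and 147 and 191 without glucose, a log2 fold change of -1.96 ± 0.13. In none of them did the groups overlap, and FDFT1 and SQLE had close values within each group, while LSS was lower in ONG_9 than in ONG_10.

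Steps after lanosterol were uneven: 7 of 9 genes fell, with log2 fold changes from -2.04 to -0.43, and 2 were not called. DHCR7 (chr11:71428193-71452868 on hg38), a reductase near the end of the pathway, had 1409 and 1280.1 normalized counts in CTRL_7 and CTRL_8 and 291 and 365 in ONG_9 and ONG_10. It had the lowest log2 fold change of the 35 genes, -2.04 ± 0.11 (limma, Benjamini-Hochberg adjusted p = 1.4e-07). EBP, a sterol isomerase, had 1291 and 1346 in the control libraries and 573 and 507 without glucose (-1.29 ± 0.08). MSMO1, a methyl oxidase of a demethylation cycle, had 2389 and 2297 in the control libraries and 1143 and 1054 without glucose (-1.09 ± 0.07). NSDHL, the dehydrogenase acting after it, had 736 and 733 in the control libraries and 452 and 391 without glucose (-0.80 ± 0.09, and -0.49 after GC and length correction). HSD17B7, the ketone reductase of the same cycle, had 401 and 391 in the control libraries and 296 and 290.4 without glucose (-0.43 ± 0.09; limma, Benjamini-Hochberg adjusted p = 0.0038). Its call was lost without CTRL_7 (adjusted p = 0.1) and without CTRL_8 (0.063). It was also lost with library totals, at -0.22 (adjusted p = 0.081), and when centred on protein-coding genes, at -0.23 (adjusted p = 0.078); after GC and length correction it was -0.25. The pseudogene HSD17B7P2, whose reads may be shared with it, had 53.6 and 48.2 in the control libraries and 66.7 and 80.0 without glucose.

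The reduction of the sterol nucleus that follows lanosterol demethylation can be carried by either of 2 proteins, LBR and TM7SF2. LBR, which is also a receptor for lamins at the nuclear envelope, was the most abundant of the synthesis genes per length in Ctrl, at 5249 normalized counts per kb of its longest transcript. It had 20075 and 19941 in the control libraries and 12864 and 12029 without glucose, a log2 fold change of -0.69 ± 0.05 (limma, Benjamini-Hochberg adjusted p = 1.3e-06). TM7SF2 had 269 and 285 in the control libraries and 194 and 264 without glucose, a log2 fold change of -0.29 ± 0.14 (adjusted p = 0.15 in limma with Benjamini-Hochberg adjustment). It was called without ONG_10, at -0.51 (adjusted p = 0.023), and had a positive fitted value, 0.21, after GC and length correction. TM7SF2 and VPS51 lie on the same strand and overlap only at their ends. VPS51 ends at 65111860 and TM7SF2 starts at 65111845, and sharing of reads between them was not tested. VPS51 had 1491 and 1298 in the control libraries and 1099 and 1577 without glucose. In both genes ONG_9 was the lower of the No glucose libraries, and both were GC-rich, TM7SF2 at 64.2% and VPS51 at 65.5%.

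SC5D, the desaturase before DHCR7, had 2016 and 1952 in the control libraries and 2047 and 1848 without glucose, and the groups overlapped. Its log2 fold change was -0.03 ± 0.07 (95% interval -0.18 to 0.12; limma, Benjamini-Hochberg adjusted p = 0.8). With scaling to library totals it was called higher, at 0.18 (adjusted p = 0.041). CYP51A1, the cytochrome that demethylates lanosterol, was scarce in these files, at 13.4 normalized counts per kb in Ctrl, the lowest of the synthesis genes per length. It had 47.4 and 38.8 in the control libraries and 10.6 and 28.1 without glucose, from 138, 29, 7 and 20 reads in CTRL_7, CTRL_8, ONG_9 and ONG_10. The log2 fold change of -1.26 ± 0.39 was called (limma, Benjamini-Hochberg adjusted p = 0.027), but not without CTRL_7 (adjusted p = 0.22), CTRL_8 (0.057) or ONG_9 (0.1). Without ONG_9 its log2 fold change was -0.59, and without ONG_10 -1.92. The call was also lost with library totals (adjusted p = 0.098), DESeq2 (0.11) and centring (0.055). Whether its low level depends on the annotation release or the counting strand, which are not given in the sources used here, was not tested.

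As a share of all recovered reads, the 19 synthesis genes made up 0.187% and 0.189% in CTRL_7 and CTRL_8 and 0.0996% and 0.0971% in ONG_9 and ONG_10. The groups were 0.188% ± 0.00166 and 0.0984% ± 0.00177 (SD, n = 2), a measure that does not depend on the size factors. LBR had the most reads of the 19 in every library, at 58444, 14908, 8484 and 8573 in the same order, and weighs most in this share. Its log2 fold change was -0.69, against the group median of -1.29. Per kb in Ctrl, FDFT1 (3567 normalized counts per kb), FDPS (2080.3), HMGCS1 (1602) and SQLE (1437) followed LBR, while MVK (141), LSS (133), TM7SF2 (132) and HSD17B7 (128) were low.

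**Figure D2:**
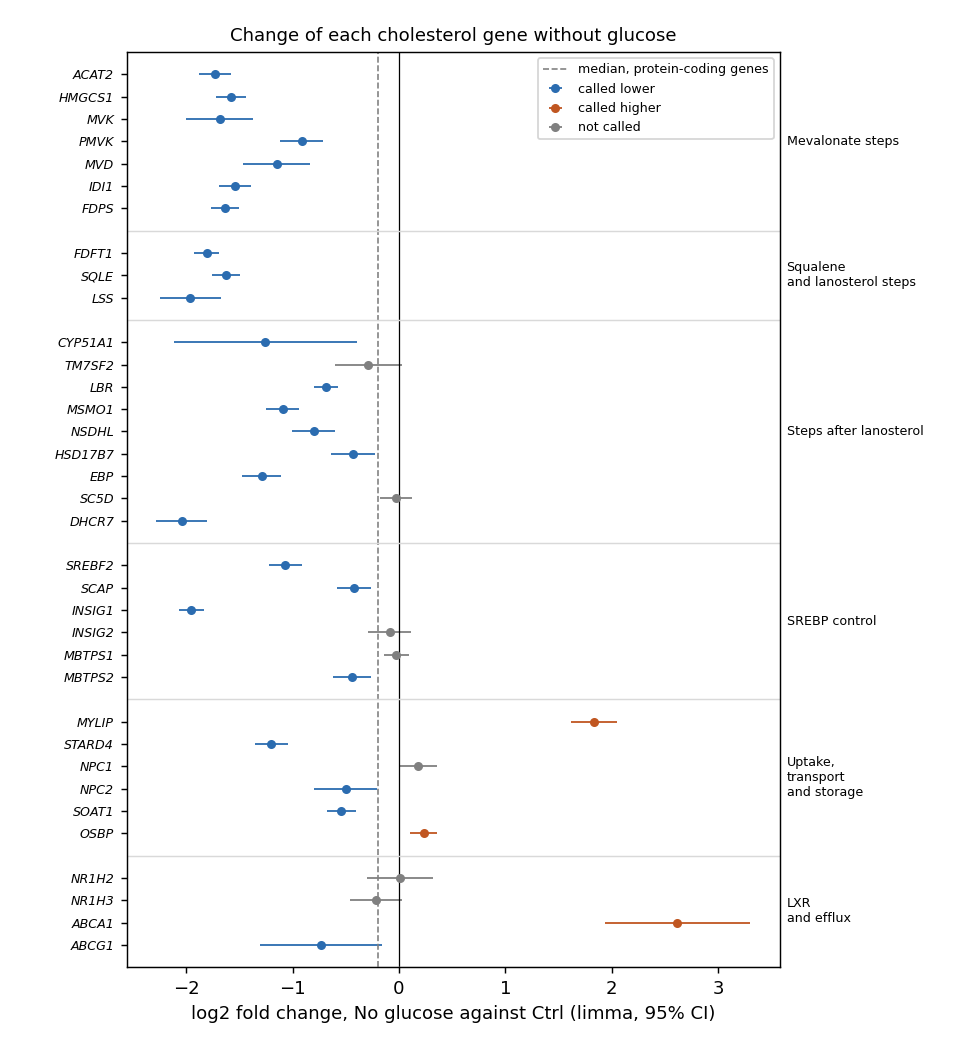
Log2 fold change (No glucose against Ctrl, limma) of each cholesterol gene with its 95% confidence interval, blue where called lower, orange where called higher and grey where not called; the dashed line is the median of protein-coding genes, -0.20. The intervals of 17 of 19 synthesis genes lie below 0, and MYLIP and ABCA1 stand on the other side at 1.83 and 2.62.

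Genes that control SREBP split: 4 of 6 (66.7%) fell and none rose. Among protein-coding genes with a mean of at least 50 normalized counts, 47.2% were called lower and 18.9% higher. The median log2 fold change of the 6 genes was -0.43. It was -0.22 with library totals, -0.24 after GC and length correction and -0.23 when centred on protein-coding genes. SREBF2 (chr22:41833079-41907308), the precursor of the factor that drives cholesterol genes and the one with the SREBP-type letters in its own promoter window shown above, had 5114 and 5083 normalized counts in CTRL_7 and CTRL_8 and 2280.4 and 2599 in ONG_9 and ONG_10. Its log2 fold change was -1.07 ± 0.07 (limma, Benjamini-Hochberg adjusted p = 4.9e-07). INSIG1 (chr7:155297776-155310235), the retention protein that is itself raised by SREBP, had 10361 and 10476 normalized counts in CTRL_7 and CTRL_8 and 2734 and 2644 in ONG_9 and ONG_10. It kept 25.8% of the control mean, a log2 fold change of -1.95 ± 0.05 (limma, Benjamini-Hochberg adjusted p = 3.4e-09), and was the most abundant of these 6 genes per length in Ctrl, at 3461 normalized counts per kb. Its relative INSIG2, which also retains the SCAP complex, had 1079.6 and 1118 in the control libraries and 1136 and 943 without glucose, with overlapping groups. The log2 fold change of INSIG2 was -0.09 ± 0.09 (95% interval -0.29 to 0.11; limma, Benjamini-Hochberg adjusted p = 0.51), and among the 14 alternatives it was called in 1, lower without ONG_9, at -0.22 (adjusted p = 0.0087). The ratio of INSIG1 to INSIG2 reads, free of the scaling between libraries, was 9.6 and 9.37 in CTRL_7 and CTRL_8 and 2.41 and 2.8 in ONG_9 and ONG_10, so the groups did not overlap.

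SCAP, the sterol-sensing escort, had 2857 and 2852 in the control libraries and 1983 and 2289.9 without glucose, a log2 fold change of -0.42 ± 0.07 (limma, Benjamini-Hochberg adjusted p = 8.2e-04). Its call was lost without CTRL_7 (adjusted p = 0.055) and with scaling to library totals, at -0.21 (adjusted p = 0.071); after GC and length correction it was -0.13. The ratio of SREBF2 to SCAP reads was 1.79 and 1.78 in CTRL_7 and CTRL_8 and 1.15 and 1.14 in ONG_9 and ONG_10. Golgi proteases cut the precursor in turn. MBTPS1, the first of them, which also cuts other membrane-bound factors, had 5739 and 5482 in the control libraries and 5516 and 5507 without glucose, with overlapping groups and a log2 fold change of -0.03 ± 0.05 (limma, Benjamini-Hochberg adjusted p = 0.76). With scaling to library totals it was called higher, at 0.19 (adjusted p = 0.0082). MBTPS2, which makes the second cut within the membrane, had 662 and 675 in the control libraries and 489.7 and 495 without glucose (-0.44 ± 0.08; limma, Benjamini-Hochberg adjusted p = 0.0012), and missed the threshold without CTRL_7 (adjusted p = 0.052). With library totals it was -0.23. The ratio of MBTPS1 to MBTPS2 reads was 8.67 and 8.12 in CTRL_7 and CTRL_8 and 11.3 and 11.1 in ONG_9 and ONG_10. With 2 libraries per group an exact permutation test of such a ratio cannot go below p = 0.333, so the ratios are given as descriptions.

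**Figure D3:**
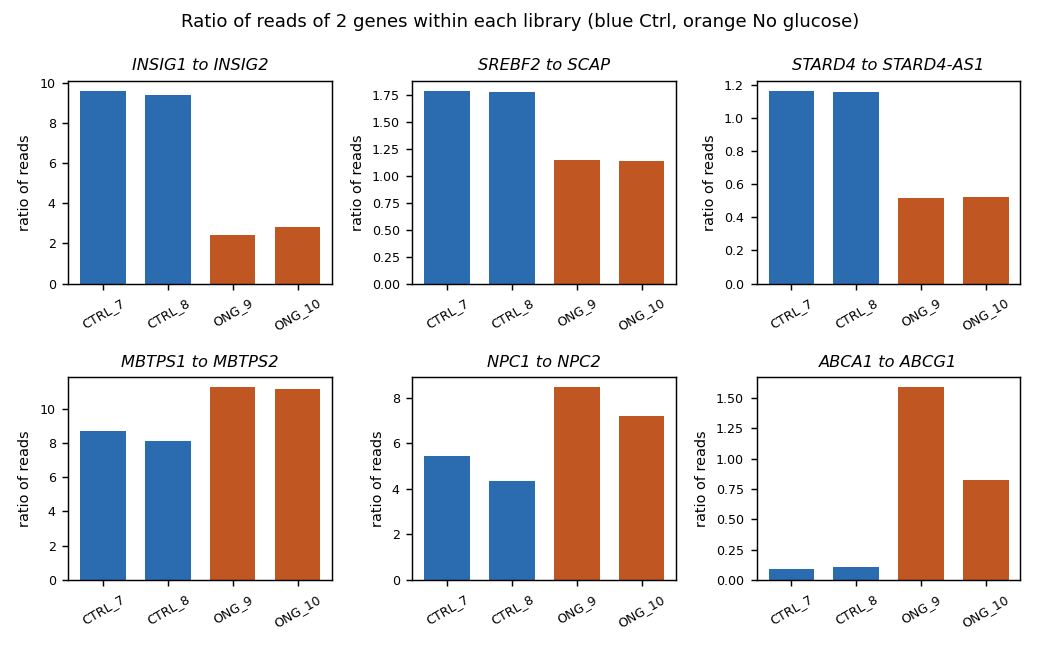
Reads of one gene divided by reads of another within each library (bars from 0, blue Ctrl, orange No glucose), for 6 pairs. INSIG1 to INSIG2, SREBF2 to SCAP and STARD4 to STARD4-AS1 are lower in both No glucose libraries than in either Ctrl library, and MBTPS1 to MBTPS2, NPC1 to NPC2 and ABCA1 to ABCG1 are higher.

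Of the 6 genes of uptake, transport and storage 3 (50%) fell, 2 (33.3%) rose and 1 was not called. Among protein-coding genes with a mean of at least 50 normalized counts, 47.2% were called lower, close to that share, and 18.9% higher. MYLIP (chr6:16129125-16148248), a ubiquitin ligase that sends lipoprotein receptors to degradation and is induced by LXR, had 184 and 182 normalized counts in CTRL_7 and CTRL_8 and 681 and 630.0 in ONG_9 and ONG_10. It rose by 1.83 ± 0.10 on the log2 scale (limma, Benjamini-Hochberg adjusted p = 1.3e-07), and both No glucose libraries were over 3 times as high as either control library. STARD4, a cytosolic sterol carrier induced by SREBP, had 2047 and 2055 in the control libraries and 929 and 857 without glucose, a log2 fold change of -1.20 ± 0.07 (limma, Benjamini-Hochberg adjusted p = 2.6e-07). SOAT1, which esterifies cholesterol for storage, had 4128 and 4001 in the control libraries and 2908 and 2680.0 without glucose (-0.54 ± 0.06; limma, Benjamini-Hochberg adjusted p = 3.4e-05), and -0.33 with library totals. OSBP, which trades cholesterol for a phosphoinositide between the reticulum and the Golgi, had 3079 and 3101 in the control libraries and 3713 and 3559.7 without glucose (0.23 ± 0.06; limma, Benjamini-Hochberg adjusted p = 0.0072). That rise was not called without CTRL_7 (adjusted p = 0.2) or without CTRL_8 (0.19), and was 0.45 with library totals.

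The 2 proteins that export lipoprotein cholesterol from lysosomes, the membrane protein NPC1 and the soluble NPC2, had fitted values of opposite sign. NPC1 had 905 and 799.9 in the control libraries and 990.1 and 939 without glucose (0.18 ± 0.08; limma, Benjamini-Hochberg adjusted p = 0.12). The groups did not overlap, and with scaling to library totals it was called higher, at 0.39 (adjusted p = 0.0048). NPC2 had 166 and 185 in the control libraries and 117 and 130.5 without glucose (-0.50 ± 0.14; limma, Benjamini-Hochberg adjusted p = 0.013), and its call was lost without CTRL_7 (adjusted p = 0.089) and without CTRL_8 (0.21). It was also lost with DESeq2 (adjusted p = 0.11), with library totals, at -0.29 (adjusted p = 0.13), when centred, at -0.30 (adjusted p = 0.11), and after GC and length correction, at -0.17 (adjusted p = 0.32). The ratio of NPC1 to NPC2 reads was 5.44 and 4.33 in CTRL_7 and CTRL_8 and 8.48 and 7.19 in ONG_9 and ONG_10.

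Among the LXR and efflux genes, the efflux pump ABCA1 rose and the receptors themselves were not called. ABCA1 (chr9:104781002-104928237), which loads cholesterol onto lipid-poor apolipoproteins, was scarce in Ctrl, at 0.679 normalized counts per kb. It had 7.56 and 6.69 normalized counts in CTRL_7 and CTRL_8 and 53.1 and 44.9 in ONG_9 and ONG_10, from 22, 5, 35 and 32 reads. Its log2 fold change of 2.62 ± 0.31 (limma, Benjamini-Hochberg adjusted p = 4.7e-05) was the highest of the 35 genes, and its groups did not overlap. ABCG1, the pump that loads mature lipoproteins, had 83.1 and 61.5 in the control libraries and 33.4 and 54.7 without glucose, with groups that did not overlap and a log2 fold change of -0.73 ± 0.26. It passed narrowly (limma, Benjamini-Hochberg adjusted p = 0.0499), and 10 of 14 alternatives lost the call. It was lost, for example, without CTRL_7 (adjusted p = 0.38), CTRL_8 (0.057) or ONG_9 (0.21), when its log2 fold change was -0.38. The ratio of ABCA1 to ABCG1 reads was 0.0909 and 0.109 in CTRL_7 and CTRL_8 and 1.59 and 0.821 in ONG_9 and ONG_10. NR1H2, the widely expressed LXR, had 969 and 849 in the control libraries and 758 and 1096 without glucose, with overlapping groups and a log2 fold change of 0.01 ± 0.14 (95% interval -0.30 to 0.32; limma, Benjamini-Hochberg adjusted p = 0.98). It was called higher without ONG_9, at 0.27 (adjusted p = 0.01), and after GC and length correction, at 0.39 (adjusted p = 0.0015). NR1H3, the other LXR, had 234 and 226 in the control libraries and 200.1 and 195 without glucose, a log2 fold change of -0.22 ± 0.11 (limma, Benjamini-Hochberg adjusted p = 0.16), with groups that did not overlap; it was -0.01 with library totals and 0.05 after GC and length correction.

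Several of these genes share a locus with another, and, although the library kit keeps strand, the strand used in counting is not given in the sources used here, so reads of overlapping genes on opposite strands may have been mixed. MVK overlaps the head of MMAB, a cobalamin enzyme gene on the other strand, which also fell: MMAB had 1060.0 and 989.8 in the control libraries and 403 and 393 without glucose (-1.36 ± 0.08; limma, Benjamini-Hochberg adjusted p = 3.0e-07). ACAT2 overlaps the tail of TCP1, a far more abundant chaperonin subunit, which had 24905 and 24948 in the control libraries and 13808 and 13043 without glucose (-0.89 ± 0.05). They fell to 53.9% (TCP1) and 30.1% (ACAT2) of their control means. STARD4-AS1, the antisense transcript that starts beside STARD4, had 1760.1 and 1779 in the control libraries and 1810.4 and 1637 without glucose, with overlapping groups and a log2 fold change of -0.04 ± 0.07 (limma, Benjamini-Hochberg adjusted p = 0.71). The ratio of STARD4 to STARD4-AS1 reads was 1.16 and 1.16 in CTRL_7 and CTRL_8 and 0.513 and 0.524 in ONG_9 and ONG_10. SREBF2-AS1, antisense to the start of SREBF2, also fell, with 331 and 344 in the control libraries and 232 and 203 without glucose (-0.63 ± 0.11; limma, Benjamini-Hochberg adjusted p = 8.2e-04).

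Around the core pathway, 68 further sterol genes were followed in 5 lists, of which 65 passed the filter on low values. Calls were lower in 32 of those 65 (49.2%) and higher in 7 (10.8%), against 47.2% and 18.9% of the protein-coding genes described above, and the median was -0.24 against -0.20. Without CTRL_7, 18 were lower and 4 higher, and with scaling to library totals 21 were lower and 21 higher. Of 15 genes of the isoprenoid branch, which takes farnesyl units to prenylated proteins, dolichol and ubiquinone, 9 were lower (5 without CTRL_7) and none higher, with a median of -0.28. PDSS1, a subunit of the ubiquinone side-chain synthase, had 1105 and 1114 in the control libraries and 470.0 and 397 without glucose (-1.36 ± 0.09; limma, Benjamini-Hochberg adjusted p = 7.4e-07). ICMT and ZMPSTE24, which finish the ends of prenylated proteins, had log2 fold changes of -1.05 ± 0.07 and -0.84 ± 0.06. Of 11 genes of sterol-regulated degradation and SCAP control 7 were lower (4 without CTRL_7) and none higher, with a median of -0.27. TMEM97, a sterol-responsive membrane protein that binds NPC1, had 2549.7 and 2644 in the control libraries and 914 and 888 without glucose (-1.53 ± 0.07; limma, Benjamini-Hochberg adjusted p = 3.8e-08). The ubiquitin-conjugating enzyme UBE2G2 and the heme-binding PGRMC1 followed, at -0.83 ± 0.05 and -0.76 ± 0.06.

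In the wider list of sterol transport and storage, 14 of 28 genes were lower and 5 higher, with a median of -0.25; without CTRL_7 it was 9 and 3. In the main fit 50% of the 28 were lower and 17.9% higher, near the 47.2% and 18.9% of protein-coding genes averaging at least 50. The median of those protein-coding genes was -0.20. OSBPL6, an oxysterol-binding relative, had 31.3 and 32.1 in the control libraries and 6.06 and 9.82 without glucose (-1.90 ± 0.35). Those values came from 91, 24, 4 and 7 reads in CTRL_7, CTRL_8, ONG_9 and ONG_10. The outer mitochondrial membrane protein TSPO had 121 and 114 in the control libraries and 33.4 and 43.5 without glucose (-1.59 ± 0.19). Higher were OSBPL10 at 0.80 ± 0.19, OSBPL7 at 0.77 ± 0.11 and the lysosomal membrane protein SCARB2 at 0.69 ± 0.07, and OSBPL10 was not called without CTRL_7 (adjusted p = 0.12) or ONG_10 (0.054). Of 7 LXR partners and targets 6 were tested, 2 were lower and 1 higher; none of these 3 was called without CTRL_7. The LXR partner RXRA had a log2 fold change of -0.75 ± 0.16, not called without CTRL_7, at -0.59. The phospholipid enzyme LPCAT3 had a log2 fold change of -0.40 ± 0.11, not called without CTRL_7 (-0.39) or CTRL_8 (-0.41). The LPCAT3 call was also lost with library totals (-0.19), DESeq2 (-0.40), centring (-0.20) and GC and length correction (-0.17). RXRB, also an LXR partner, was at 0.37 ± 0.11, not called without CTRL_7 (0.36) or CTRL_8 (0.39). Its call was also lost with DESeq2, at 0.38 (DESeq2 adjusted p = 0.11). Of 7 oxysterol and bile acid enzymes 5 were tested, and CH25H, which makes an oxysterol, was the 1 called higher. It rested on 3 reads in Ctrl against 11 without glucose, a ratio of 9.78 after scaling with a counting interval of 2.58 to 54.6 (95%, exact binomial, counting error only). Its call was lost without CTRL_7 (adjusted p = 0.099) and without ONG_9 (0.052).

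**Figure D4:**
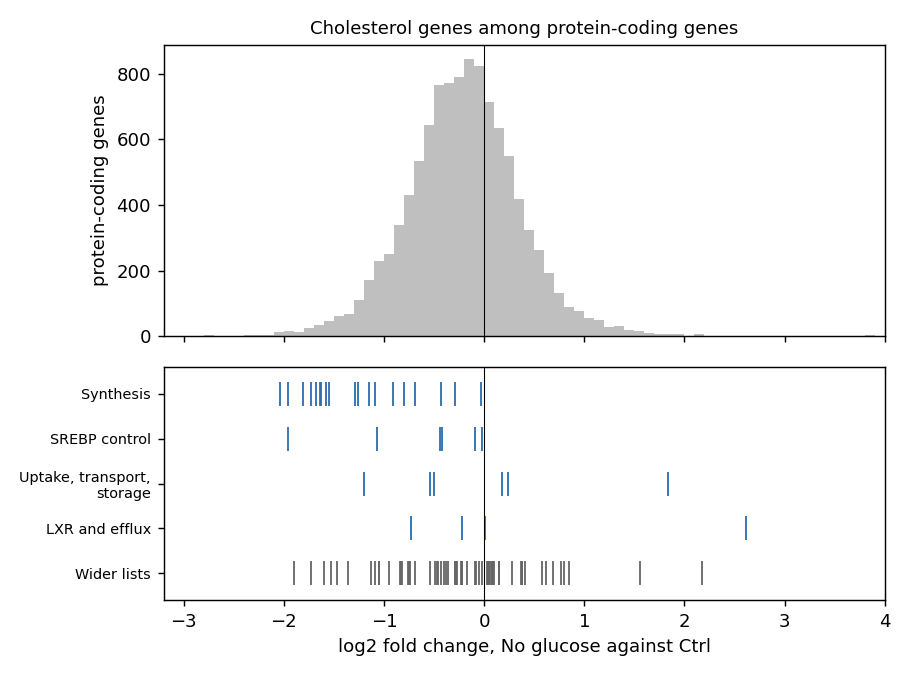
Top, number of protein-coding genes with a mean of at least 50 normalized counts by log2 fold change (No glucose against Ctrl; 7 genes lie outside the axis); bottom, each cholesterol gene as a tick, by role, with the wider sterol genes in the last row. The synthesis ticks lie at or left of 0 and reach -2.04, and the wider genes lie on both sides of 0.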

How the data were processed

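Total RNA of CCRF-CEM/HA-AMPKa2 cells was measured in 2 Ctrl and 2 No glucose libraries. Per the submitters' processing notes, STAR 2.6.0c, RSEM 1.3.0 and DESeq2 1.18.1 were used on hg38; the annotation release and the counting strand are not given in the sources used here. The signal values, as deposited, are read counts that the authors divided by 1 size factor per library. The log2 fold changes and errors, the score (test statistic) and the p-values of the authors' own comparison, as deposited, served only to count their calls. Columns named ONG were assigned to No glucose because the other 2 columns are named CTRL and the series has these groups only.

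There were 60868 entries and 60609 identifiers; GENCODE 29 held 58457 of them and supplied positions, types, GC content and lengths. Whole reads were recovered by undoing the size factors: 100% of values lay within 0.01 of a whole number. The two-sided test was limma 3.58.1 (trend, R 4.3.3) after adding 1 and taking log2, for the 27486 genes averaging 1 or more, calling genes at a Benjamini-Hochberg adjusted p under 0.05. Fold changes on this scale understate low genes. The fit was tested on simulated data. The alternatives were edgeR 4.0.16, DESeq2 1.42.0 and limma-voom on recovered reads, other scalings, pseudocounts and filters, and each library left out in turn; edgeR called 6292 genes lower and 3964 higher. GC and length correction and centring on protein-coding genes were chosen after seeing the data.

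The members, their groups and the wider lists were chosen with earlier results of these data known. All 35 members were named, and from each wider list at most the 3 called genes that moved most each way, of which 1 is not reported here; overlapping neighbours were chosen after their values were seen. No per-sample column was left unused. Other genes of the pathway are not analysed here.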

Additional observations from a re-analysis of the deposited data

How the results depend on the processing

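Of the 35 cholesterol genes, 22 kept their side of the threshold under all 14 alternatives, and also their direction except NR1H3, which was not called and had a fitted value of 0.05 after GC and length correction; the other 13 changed under at least 1. The lower count of 25 ranged from 19 (without CTRL_7) to 26 (without ONG_10), and the higher count of 3 was 6 with scaling to library totals, 7 after GC and length correction and 5 when centred on protein-coding genes, and 2 to 4 with 1 library left out. The median of the synthesis genes, -1.29, was -1.08 with library totals, -1.08 after GC and length correction, -1.09 when centred on protein-coding genes and -1.32 to -1.46 with 1 library left out. SC5D turned from -0.03 to 0.18 with library totals and 0.16 after GC and length correction, and MBTPS1 from -0.03 to 0.19, 0.13 and, centred on protein-coding genes, 0.17; these settings moved the median of all genes upward by 0.19 to 0.28. In the wider lists the lower count of 32 was 21 with library totals and 18 to 34 with 1 library left out. Their higher count of 7 was 21 with library totals, 19 after GC and length correction, 21 when centred on protein-coding genes and 4 to 9 with 1 library left out, lowest without CTRL_7. The main fit called 5695 of all genes lower and 3948 higher. Both numbers were smaller without CTRL_7, the deepest library, and also without the shallower CTRL_8. With either left out, 1 Ctrl library remained, and the spread was taken from the No glucose pair alone. No paired analysis was possible because the table's columns carry no replicate number of the labels. Low read numbers limit CYP51A1, ABCA1, ABCG1, OSBPL6 and CH25H.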
